A study of Homo sapiens with 6 samples.

Results

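Receptor tyrosine kinases and their growth factors were followed in MDA-MB-231 cells depleted of PARP1 together with one subunit of Polycomb repressive complex 2 (PRC2). The 45 genes, taken by symbol from the 29744 genes of a read count table, were 33 receptors other than the VEGF and ephrin receptors, and 12 ligands of the EGF, FGF, PDGF, HGF and GAS6 families. MDA-MB-231 is a mesenchymal-like human breast cancer cell line. The mRNA was sequenced from 3 groups of 2 libraries, after culture for 2 days in 10% serum at passage 5 to 10. The PARP1 KO shEZH2 line carried a PARP1 knockout and an shRNA against EZH2, the methyltransferase of PRC2, and is called the shEZH2 line here. The PARP1 KO shSUZ12 line carried a PARP1 knockout and an shRNA against SUZ12, a core PRC2 subunit, and is called the shSUZ12 line. The control was wild type for PARP1 and expressed a nontargeting shRNA. None of the groups was depleted of only one of these 3 proteins, so knockout and knockdown cannot be told apart in a comparison with control. The labels do not say how many clones each line was made from, or that the 2 libraries of a group came from separate cultures, so the p-values measure the spread between these libraries.

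A receptor tyrosine kinase is a membrane protein that binds a growth factor outside the cell, pairs with a second receptor and phosphorylates tyrosines on its own tail. Adaptors bound to those tyrosines start the RAS-ERK and PI3K-AKT cascades, and inhibitors made in response then damp the signal. In mesenchymal-like breast cancer cells EGFR and AXL are the best-known members, while several others, such as MUSK at the nerve-muscle junction or TIE1 in blood vessels, belong mainly to other tissues. PRC2 marks silenced genes by methylating lysine 27 of histone H3, often at promoters rich in CG dinucleotides.

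Each library held between 20135270 and 22782742 counts in genes, and values are given as CPM, the count scaled to library size. PARP1 measured 33.6 and 28.6 CPM in shEZH2 cells, 28.7 and 26.6 CPM in shSUZ12 cells and 425 and 361 CPM in control cells. EZH2 measured 53.1 and 63.5 CPM in shEZH2 cells, against 199 and 188 CPM in control. SUZ12 measured 76.1 and 70.3 CPM in shSUZ12 cells, against 134 and 133 CPM in control, and its levels in the shEZH2 line, 130 and 53.1 CPM, lay far apart. Each targeted gene was thus lower in the line named for it, although the SUZ12 difference did not pass the test described below (edgeR adjusted p = 0.377). The cells held markers of both kinds. VIM, the mesenchymal filament vimentin, was between 2942 and 5146 CPM, and ZEB1, CD44 and FN1 were at 37.0 CPM or more in every library, while CDH2 did not exceed 0.523 CPM and SPARC 1.48 CPM. Of the luminal and epithelial markers, ESR1 was at 0 in every library and CDH1, E-cadherin, did not exceed 0.855 CPM, while KRT8 was between 363 and 652 CPM, KRT18 between 408 and 847 CPM and KRT19 between 80.5 and 208 CPM. FOXA1, also luminal, measured 2.27 and 0.664 CPM in shEZH2 cells, against 0.045 and 0 CPM in control (edgeR adjusted p = 0.0266). EPCAM measured 5.21 and 7.15 CPM in shEZH2 cells, against 16.4 and 14.2 CPM in control (edgeR adjusted p = 0.0295). No other marker of these lists was called against control in either line. The 2 shEZH2 libraries stand apart from each other: 16.9% of the 14192 genes that passed the filter on low counts differed more than 2-fold between them, against 2.41% between the shSUZ12 libraries and 4.45% between the control libraries.

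The 2 members that fell in both lines, PTK7 and MUSK, had promoters of contrasting composition. The 250 bases before each start site are shown from RefSeq on GRCh38.p14, both on the plus strand, at chr6:43076064-43076313 for PTK7 and chr9:110668541-110668790 for MUSK. CG dinucleotides are in capitals.
PTK7: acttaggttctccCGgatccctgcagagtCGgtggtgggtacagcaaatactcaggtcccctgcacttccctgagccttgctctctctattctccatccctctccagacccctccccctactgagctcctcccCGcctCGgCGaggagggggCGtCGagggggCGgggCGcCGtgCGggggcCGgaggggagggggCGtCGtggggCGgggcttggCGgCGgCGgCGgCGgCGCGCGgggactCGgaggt
MUSK: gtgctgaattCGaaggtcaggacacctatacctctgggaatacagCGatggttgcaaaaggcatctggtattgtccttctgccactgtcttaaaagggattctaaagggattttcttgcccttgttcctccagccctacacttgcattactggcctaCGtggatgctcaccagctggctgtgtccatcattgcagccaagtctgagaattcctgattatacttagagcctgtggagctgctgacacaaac
The PTK7 stretch held 24 CG dinucleotides and the MUSK stretch 3, where the median of 35116 such stretches was 11. As many CG dinucleotides as in PTK7 or more occurred in 23.7% of all stretches, and as few as in MUSK or fewer in 29.3%. The AP-1 motif TGANTCA, which reads the same on both strands, was searched in the same stretches, occurred in 6.57% of them, in 5 of the 70 that belonged to the 40 matched members, and in neither of the 2 shown. A second PTK7 start listed by RefSeq had 24 CG dinucleotides as well.

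In control, AXL was the most abundant receptor per transcript length. It stood at 336 CPM per kilobase, followed by MET at 61.0, EGFR at 30.2, FGFR1 at 23.5, RYK at 17.4, ERBB2 at 15.3, MERTK at 10.98 and PTK7 at 10.7 CPM per kilobase. The ranges of the 2 control libraries were separate between neighbours in this order down to MERTK, and those of MERTK and PTK7 overlapped. Among ligands GAS6, which activates AXL, TYRO3 and MERTK, was at 205 CPM per kilobase, ahead of HBEGF at 33.0, PDGFC at 28.6, TGFA at 21.0 and AREG at 20.7. HBEGF, TGFA and AREG bind EGFR, and PDGFC binds PDGF receptors. The libraries of TGFA and AREG overlapped. The cells thus held transcripts of receptor and ligand for the AXL and EGF families. The same held for the FGF family, with FGF5 at 4.05 CPM per kilobase. It also held for the PDGF family, with PDGFRB at 1.07 and PDGFB at 0.755 CPM per kilobase.

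**Figure D1:**
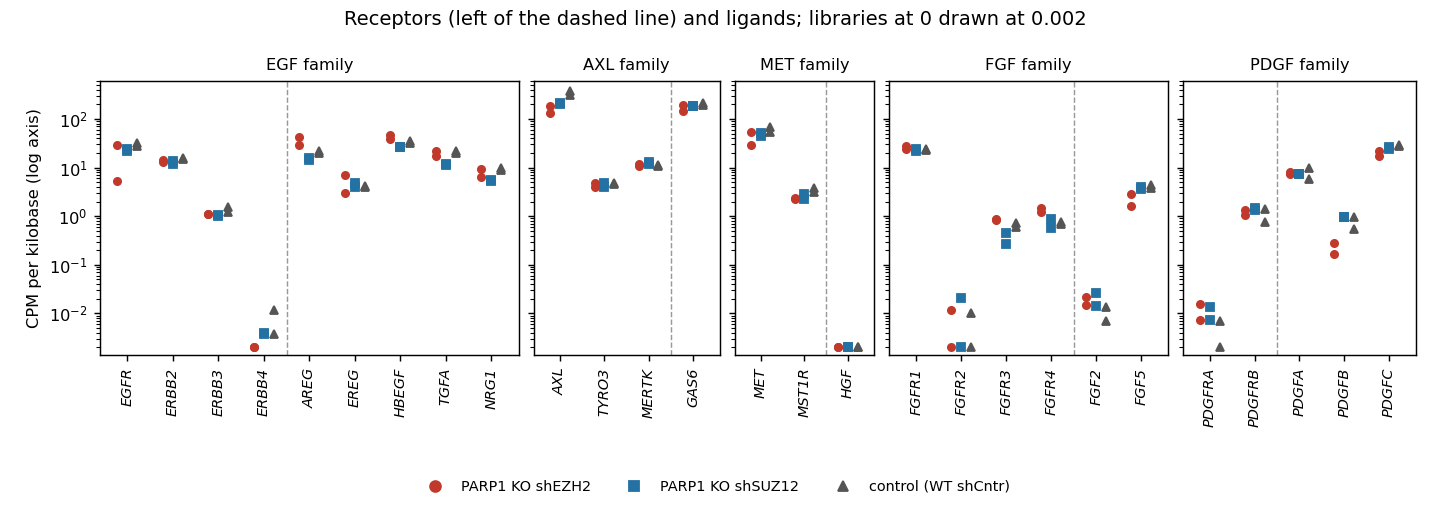
Level of each gene of the EGF, AXL, MET, FGF and PDGF families in CPM per kilobase of transcript (log axis), one symbol per library, with receptors left of the dashed line in each panel and ligands right of it; libraries at 0 are drawn at 0.002. AXL and GAS6 are highest, and HGF is at 0 in all 6 libraries.

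Of the 45 members, 32 passed the filter on low counts and were tested. The other 13 were the receptors ERBB4, FGFR2, PDGFRA, KIT, ROR2, TEK, RET, NTRK2, NTRK3, ALK and ROS1 and the ligands HGF and FGF2. None of them had more than 5 counts in any library. ROR2, RET, NTRK3 and HGF, the ligand of MET, had no count in any library, where 3 counts correspond to between 0.134 and 0.153 CPM. For these genes no difference was detectable at this depth.

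In the shEZH2 line 4 of the 32 tested members differed from control, against 6.74% of all tested genes (edgeR quasi-likelihood test, Benjamini-Hochberg adjusted p under 0.05 over all 14192 genes). MUSK, PTK7 and AXL fell and TIE1 rose, against a background of 3.20% of genes lower and 3.54% higher. In the shSUZ12 line 2 of the 32, MUSK and PTK7, differed from control, both lower, against a background of 1.61% in either direction and 0.888% lower. Both comparisons use the same control libraries. All of the called members were receptors, and none of the 10 tested ligands was called by edgeR in either comparison. At an unadjusted p under 0.05 there were 4 ligands in the shEZH2 line, against 26.8% of all genes, and 2 in the shSUZ12 line, against 13.1%. DESeq2 called AREG and PDGFB in the shEZH2 line, against 13.9% of all genes, and TGFA in the shSUZ12 line, against 3.71%.

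MUSK, the kinase that organises the muscle side of the nerve-muscle junction, is a gene on the plus strand of chromosome 9, positions 110668771 to 110801620 of GRCh38 in GENCODE 29. It had 9 and 3 counts in the shEZH2 libraries (0.434 and 0.153 CPM), 21 and 26 counts in the shSUZ12 libraries (0.939 and 1.24 CPM) and 124 and 127 counts in the control libraries (5.58 and 6.03 CPM). Both lines were below both control libraries, and the shEZH2 line was below the shSUZ12 line. MUSK fell by 4.26 ± 0.46 in log2 terms in shEZH2 cells (SE, 2 libraries a group; edgeR adjusted p = 0.00644). Without the first shEZH2 library the log2 difference was -5.19, and without the second -3.69. In the shSUZ12 line it fell by 2.41 ± 0.38 (edgeR adjusted p = 0.0295). A fall in bulk RNA can come from fewer cells with the transcript or from less transcript per cell, which cannot be told apart here. LRP4, which binds the nerve signal agrin beside MUSK, measured 16.5 and 6.29 CPM in shEZH2 cells, 6.39 and 7.96 CPM in shSUZ12 cells and 7.97 and 5.18 CPM in control cells. DOK7, the cytoplasmic activator of MUSK, did not exceed 0.41 CPM in any library.

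PTK7, a pseudokinase receptor of Wnt and planar polarity signalling, lies on the plus strand of chromosome 6, positions 43076268 to 43161719. It measured 8.73 and 7.61 CPM in shEZH2 cells, 14.7 and 13.8 CPM in shSUZ12 cells and 50.6 and 41.2 CPM in control cells. The 3 groups did not overlap and their libraries were close to each other within each group. PTK7 fell by 2.49 ± 0.22 in log2 terms in shEZH2 cells (edgeR adjusted p = 0.00342) and by 1.69 ± 0.21 in the shSUZ12 line (edgeR adjusted p = 0.0126). Its control level, eighth among the receptors per length, made it the more abundant of the 2 members that fell in both lines.

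AXL, the GAS6 receptor, lies on the plus strand of chromosome 19, positions 41219203 to 41261766. It measured 855 and 630 CPM in shEZH2 cells, 985 and 1015 CPM in shSUZ12 cells and 1745 and 1442 CPM in control cells. Every library of either line was below both control libraries. AXL fell by 1.10 ± 0.21 in log2 terms in shEZH2 cells (edgeR adjusted p = 0.0280). In the shSUZ12 line its difference of -0.67 ± 0.21 did not pass the threshold (edgeR adjusted p = 0.215). It passed with only the 2 groups compared (edgeR adjusted p = 0.000146). That fit called 20.5% of all genes, against 1.61% in the fit of 3 groups. With only the 2 groups compared, the AXL call in the shEZH2 line was lost (edgeR adjusted p = 0.0974). AXL remained the most abundant receptor per length in all 3 groups.

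TIE1, an orphan receptor best known from blood vessel walls, lies on the plus strand of chromosome 1, positions 43300993 to 43323108. It had 49 and 13 counts in the shEZH2 libraries (2.36 and 0.664 CPM), 9 and 7 counts in the shSUZ12 libraries (0.402 and 0.334 CPM) and 1 count in each control library (0.045 and 0.0475 CPM). The shEZH2 libraries were thus far apart from each other and both above control, and the level was low in all 6 libraries. TIE1 rose by 4.87 ± 0.92 in log2 terms in shEZH2 cells (edgeR adjusted p = 0.0272). The log2 difference was 3.68 without the first shEZH2 library and 5.54 without the second. The ratio of the pooled counts, scaled to library size, was 33.3 with a 95% counting interval of 8.83 to 281. In the shSUZ12 line the log2 difference was 2.84 ± 1.11 (edgeR adjusted p = 0.332), and the ratio was 7.98 with a counting interval of 1.88 to 71.6. These intervals cover counting error alone and leave out the spread between the libraries of a group.

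Endothelial markers did not move one way beside TIE1. Of 7 such genes, TIE1 among them, 3 were tested, and the summed level of the 7 was 11.3 and 9.56 CPM in the shEZH2 line, 6.57 and 9.06 CPM in the shSUZ12 line and 11.2 and 9.74 CPM in control. CDH5, the endothelial cadherin, was at 0 in every library. PECAM1, an adhesion molecule of endothelium and leukocytes, measured 6.22 and 7.87 CPM in shEZH2 cells and 1.85 and 2.99 CPM in control cells, and rose by 1.54 on the log2 scale (edgeR adjusted p = 0.0475). KDR, the main VEGF receptor, measured 2.70 and 0.97 CPM in shEZH2 cells and 8.87 and 6.605 CPM in control cells; its fall was 2.07 on the log2 scale (edgeR adjusted p = 0.0395). In shSUZ12 cells KDR, at 1.34 CPM in each library, fell as well (edgeR adjusted p = 0.0477), and PECAM1, at 4.47 and 7.01 CPM, was not called (0.180). The part of endothelial-type expression in the TIE1 result was not tested.

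**Figure D2:**
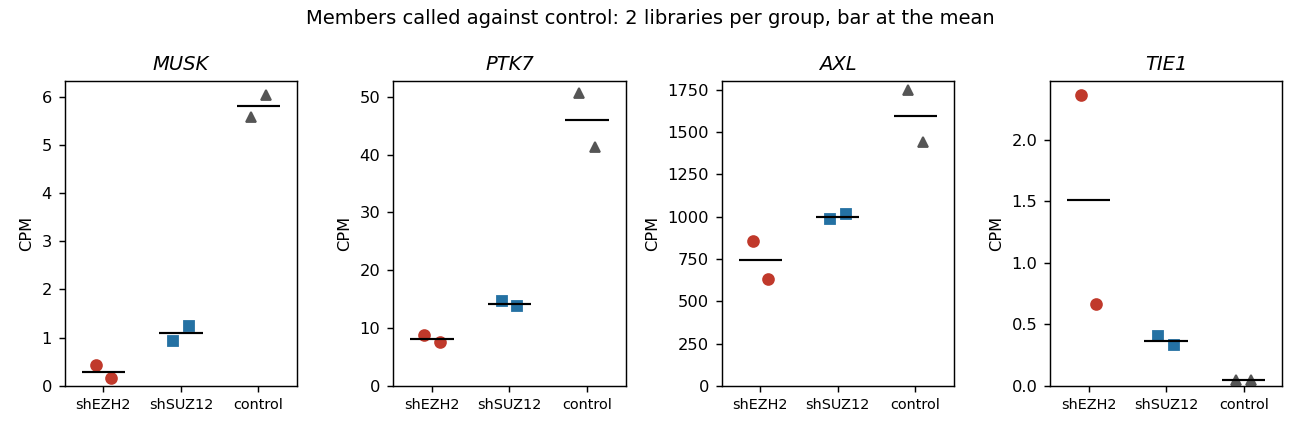
Level of MUSK, PTK7, AXL and TIE1 in each of the 6 libraries in CPM (linear axis), one symbol per library, one column per group and a bar at each mean. MUSK, PTK7 and AXL lie below both control libraries in every library of either line, and TIE1 lies above them.

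These calls depended on the control libraries. Without control replicate 1 the edgeR adjusted p in the shEZH2 line was 0.0976 for MUSK, 0.0764 for PTK7, 0.244 for AXL and 0.221 for TIE1. Without control replicate 2 these were 0.0826 for MUSK, 0.0623 for PTK7, 0.183 for AXL and 0.229 for TIE1. The directions were kept in each of these fits. The shSUZ12 calls of MUSK and PTK7 were lost without either control library or either shSUZ12 library, with edgeR adjusted p between 0.230 and 0.372 for MUSK and between 0.132 and 0.216 for PTK7 (the group left with one library being taken to vary as the others do). The AXL and TIE1 calls in the shEZH2 line were also lost without either shSUZ12 library, at 0.0978 and 0.0983 for AXL and 0.0654 in both fits for TIE1, and with only the 2 groups compared, at 0.0974 for AXL and 0.0640 for TIE1.

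The other 28 tested members passed the threshold in neither comparison with control. Their log2 differences ran from -1.77 to 0.91 in the shEZH2 line. Over all 32 tested members the median log2 difference in the shEZH2 line was -0.25, against -0.01 over all genes, with 11 above 0 and 21 below. In the shSUZ12 line it was -0.16, against 0.0034 over all genes, with 10 above 0 and 22 below. Both libraries lay below both control libraries for 15 members in the shEZH2 line and 17 in the shSUZ12 line, against 28.1% of all genes in the shEZH2 line and 30.9% in the shSUZ12 line. Both lay above for 6 members in each line, against 26.3% of all genes in the shEZH2 line and 30.3% in the shSUZ12 line. The members were not matched to all genes by transcript length, with which the ratio between the shEZH2 libraries moved, as described below. The part of length in the shEZH2 median and counts was not tested.

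**Figure D3:**
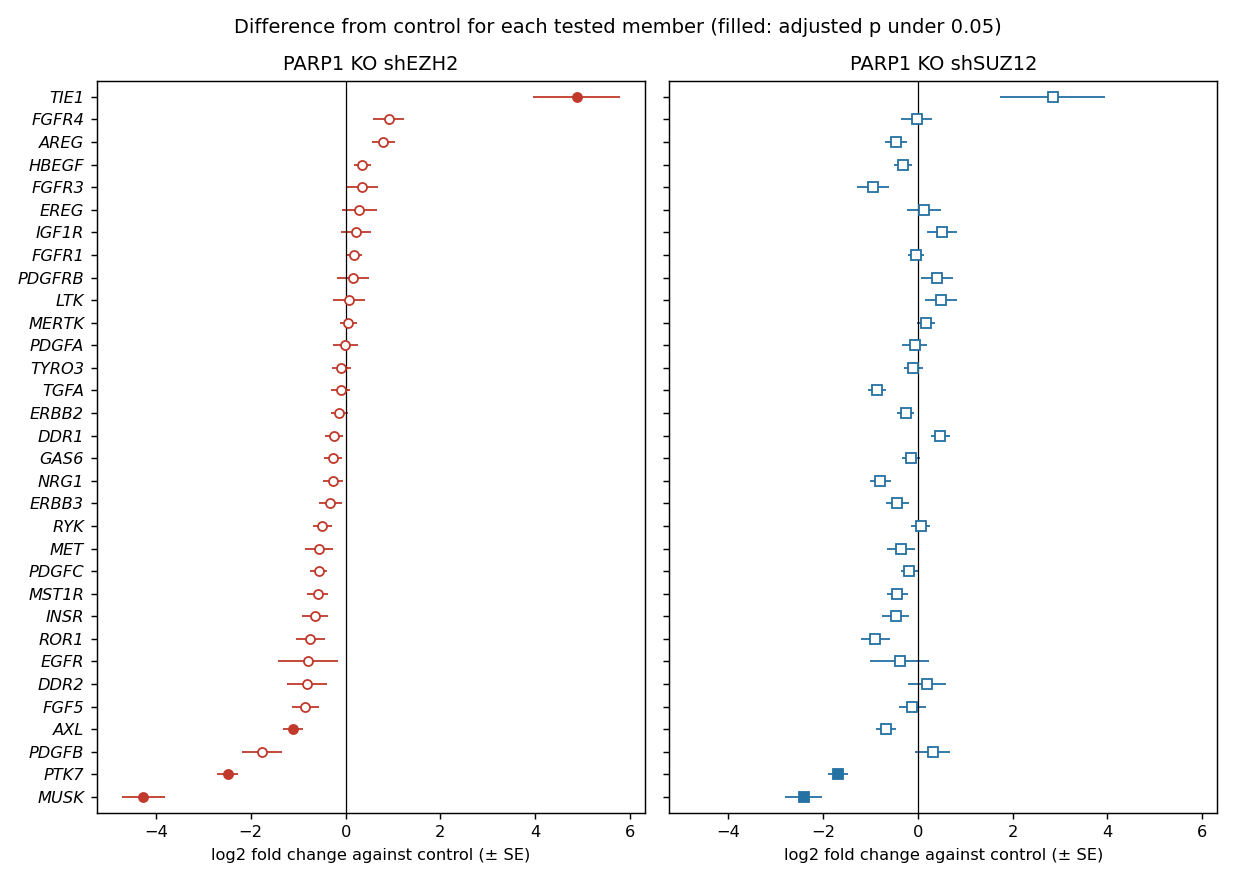
Log2 fold change against control for each of the 32 tested members in the shEZH2 line (left) and the shSUZ12 line (right), with bars for ± 1 SE and filled symbols for edgeR adjusted p under 0.05. Filled symbols are MUSK, PTK7, AXL and TIE1 on the left and MUSK and PTK7 on the right.

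In the EGF family the receptors were below control in most libraries without passing the test. EGFR, on chromosome 7 (positions 55019021 to 55211628, plus strand), measured 289 and 51.2 CPM in shEZH2 cells, 238 and 216 CPM in shSUZ12 cells and 321 and 272 CPM in control cells. The second shEZH2 library was far below the other 5, and the first lay within the control range. The log2 difference was -0.80 ± 0.63 in the shEZH2 line (edgeR adjusted p = 0.448) and -0.38 ± 0.63 in the shSUZ12 line (edgeR adjusted p = 0.906). ERBB2, the partner without a ligand of its own, measured 63.5 and 70.1 CPM in shEZH2 cells, 56.0 and 66.7 CPM in shSUZ12 cells and 75.8 and 70.7 CPM in control cells. ERBB3, which has little kinase activity and binds neuregulin, measured 6.51 and 6.69 CPM in shEZH2 cells, 6.21 and 5.96 CPM in shSUZ12 cells and 7.25 and 9.22 CPM in control cells. ERBB2 and ERBB3 were below both control libraries in both lines, by small margins for ERBB2. ERBB4 had at most 3 counts in a library.

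Among the EGF family ligands, AREG and HBEGF lay on opposite sides of control in the 2 lines. AREG, amphiregulin, measured 36.2 and 53.0 CPM in shEZH2 cells, 19.9 and 17.4 CPM in shSUZ12 cells and 24.3 and 26.99 CPM in control cells. HBEGF measured 90.7 and 111 CPM in shEZH2 cells, 63.0 and 64.0 CPM in shSUZ12 cells and 83.0 and 74.7 CPM in control cells. Both shEZH2 libraries were above, and both shSUZ12 libraries below, the 2 control libraries of each ligand, and no difference from control passed the test in edgeR. TGFA measured 93.9 and 74.1 CPM in shEZH2 cells, 49.4 and 50.03 CPM in shSUZ12 cells and 85.0 and 95.7 CPM in control cells. NRG1, a ligand of ERBB3 and ERBB4, measured 55.0 and 38.4 CPM in shEZH2 cells, 33.2 and 31.6 CPM in shSUZ12 cells and 58.6 and 53.6 CPM in control cells. For both of these the shSUZ12 libraries were the lowest, and the shEZH2 and control libraries overlapped. EREG, epiregulin, another EGFR ligand, measured 31.9 and 13.9 CPM in shEZH2 cells, 22.3 and 18.8 CPM in shSUZ12 cells and 18.5 and 18.9 CPM in control cells, so all 3 groups overlapped.

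Set directly against each other, shSUZ12 over shEZH2, none of the 32 members passed the threshold in edgeR, against a background of 1.52%. At an unadjusted p under 0.05 there were 14, against 23.9% of all genes, and DESeq2 called 8, against 9.19% of all genes. The log2 difference of AREG was -1.26 ± 0.24 (edgeR adjusted p = 0.0550), that of TGFA -0.76 ± 0.19 (0.0854) and that of HBEGF -0.66 (0.101), each lower in the shSUZ12 line by the sign of the estimate. PTK7 and MUSK differed by 0.80 ± 0.21 (edgeR adjusted p = 0.0895) and 1.85 ± 0.50 (0.0950), and DESeq2 called both (adjusted p = 0.0402 and 0.0359), so whether their falls differed between the lines depended on the tool. Both shSUZ12 libraries lay above both shEZH2 libraries for 9 members, against 28.1% of all genes, and below for 9, against 26.5%. The median over the 32 was 0.13, against 0.04 over all genes.

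In the AXL family only AXL was called. TYRO3 measured 40.4 and 32.2 CPM in shEZH2 cells, 33.1 and 39.2 CPM in shSUZ12 cells and 39.7 and 37.4 CPM in control cells. MERTK measured 47.5 and 42.9 CPM in shEZH2 cells, 46.4 and 51.3 CPM in shSUZ12 cells and 42.4 and 44.4 CPM in control cells. The groups overlapped for TYRO3, and for MERTK the shSUZ12 libraries were above control by a small margin. The ligand GAS6 measured 363 and 489 CPM in shEZH2 cells, 465 and 459 CPM in shSUZ12 cells and 541 and 482 CPM in control cells.

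MET, the HGF receptor, measured 359 and 190 CPM in shEZH2 cells, 335 and 300 CPM in shSUZ12 cells and 445 and 364 CPM in control cells. All libraries of both lines were below both control libraries, with log2 differences of -0.56 in the shEZH2 line and -0.35 in the shSUZ12 line that did not pass the threshold. Its relative MST1R, the receptor of macrophage-stimulating protein, was between 10.4 and 12.8 CPM in the 4 libraries of the lines and between 14.2 and 17.3 CPM in control. Both receptors of the MET family were thus below control in every library without being called.

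In the FGF family FGFR1 measured 172 and 149 CPM in shEZH2 cells, 132 and 145 CPM in shSUZ12 cells and 143 and 142 CPM in control cells. FGFR3 measured 3.76 and 3.88 CPM in shEZH2 cells, 1.16 and 1.96 CPM in shSUZ12 cells and 3.29 and 2.71 CPM in control cells. Set directly against the shEZH2 line, FGFR3 differed in shSUZ12 cells by -1.29 ± 0.34 in log2 (edgeR adjusted p = 0.0917). FGFR4 measured 3.86 and 4.65 CPM in shEZH2 cells, 1.74 and 2.72 CPM in shSUZ12 cells and 2.34 and 2.19 CPM in control cells. All 3 tested FGF receptors had their highest values in the shEZH2 line. FGF5, a secreted ligand of them, was between 8.48 and 15.04 CPM in the shEZH2 line, between 18.6 and 20.5 CPM in the shSUZ12 line and between 19.5 and 22.9 CPM in control.

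In the PDGF family the receptor PDGFRB stayed between 4.28 and 8.58 CPM in all libraries and the groups overlapped. PDGFB, which binds both PDGF receptors, had 12 and 19 counts in the shEZH2 libraries (0.579 and 0.971 CPM), 74 and 69 counts in the shSUZ12 libraries (3.31 and 3.29 CPM) and 74 and 41 counts in the control libraries (3.33 and 1.95 CPM). It was low in the shEZH2 libraries and spread in control. The log2 difference was -1.77 ± 0.42 in the shEZH2 line (edgeR adjusted p = 0.0505), and set directly against that line it was 2.09 ± 0.42 in the shSUZ12 line (edgeR adjusted p = 0.0585). Both adjusted p-values were just above the threshold in edgeR, and DESeq2 called both (adjusted p = 0.0111 and 0.00278). PDGFC measured 89.3 and 70.8 CPM in shEZH2 cells, 109 and 101 CPM in shSUZ12 cells and 123 and 114 CPM in control cells, while PDGFA, between 13.5 and 22.2 CPM, overlapped in all groups.

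Among the remaining receptors IGF1R, the receptor of insulin-like growth factors, measured 76.9 and 37.6 CPM in shEZH2 cells, 74.3 and 64.1 CPM in shSUZ12 cells and 49.3 and 48.5 CPM in control cells. The shSUZ12 libraries were above control and the shEZH2 libraries lay on both sides of it. INSR, the insulin receptor, was between 11.2 and 20.2 CPM in the 4 libraries of the lines and between 24.2 and 24.9 CPM in control. INSR was thus below control in every library of the 2 lines. ROR1, a WNT5A-binding receptor, measured 38.9 and 19.8 CPM in shEZH2 cells, 26.4 CPM in each shSUZ12 library and 50.1 and 48.4 CPM in control cells. Its log2 differences, -0.75 in the shEZH2 line and -0.90 in the shSUZ12 line, did not pass the threshold, although all 4 libraries were below control. RYK, another Wnt receptor, measured 40.7 and 31.7 CPM in shEZH2 cells, 55.6 and 50.8 CPM in shSUZ12 cells and 50.9 and 51.2 CPM in control cells. RYK was lower in both shEZH2 libraries than in any other library. DDR1, a collagen receptor, measured 25.5 and 30.5 CPM in shEZH2 cells, 44.8 and 47.4 CPM in shSUZ12 cells and 31.3 and 35.0 CPM in control cells. Its direct log2 difference, shSUZ12 over shEZH2, was 0.72 (edgeR adjusted p = 0.0965). DDR2, the other collagen receptor, measured 1.35 and 0.613 CPM in shEZH2 cells, 2.10 and 1.86 CPM in shSUZ12 cells and 1.80 and 1.66 CPM in control cells. Both collagen receptors were thus lowest in the shEZH2 libraries and highest in the shSUZ12 libraries. LTK, a relative of ALK, was between 2.65 and 5.06 CPM in all libraries.

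**Figure D4:**
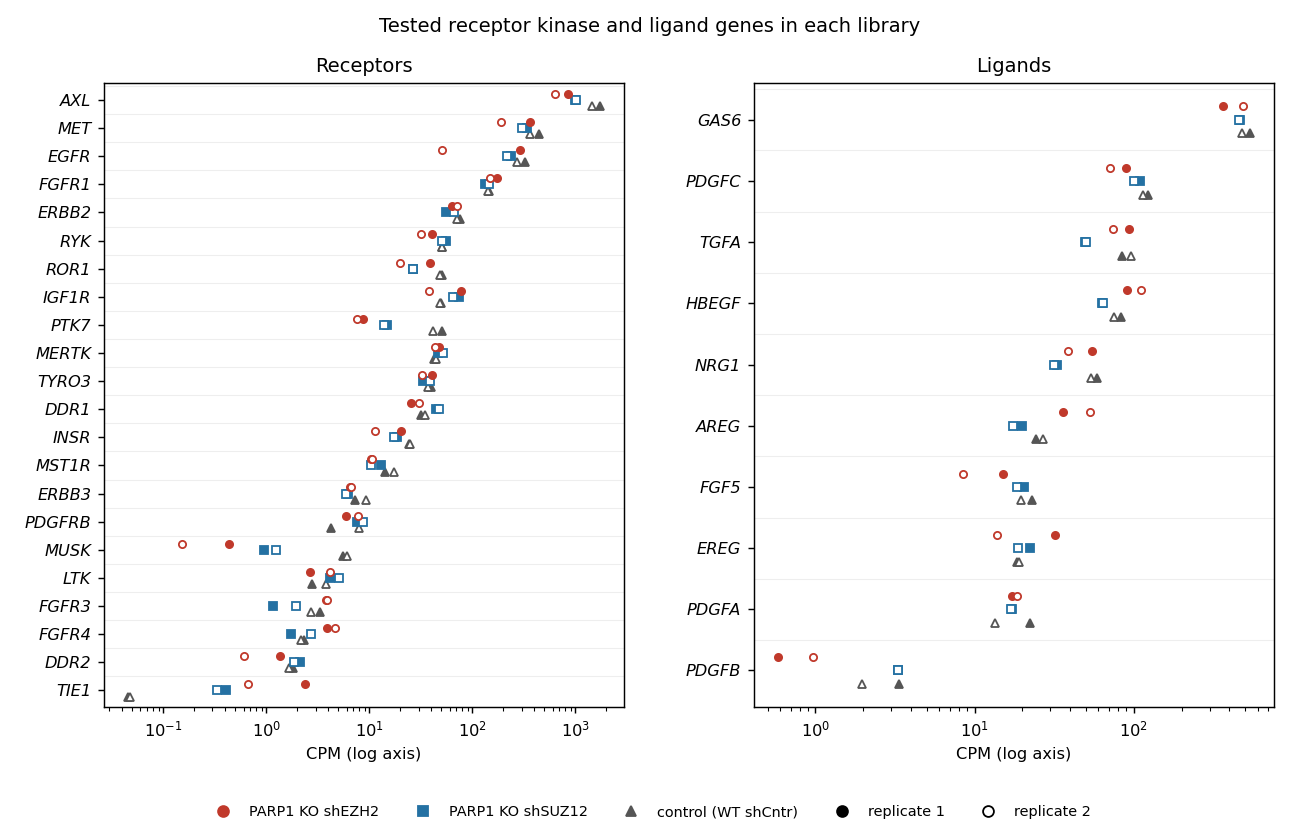
Level of each tested member in every library in CPM (log axis), one row per gene and one symbol per library, with the shEZH2 line, the shSUZ12 line and control drawn from top to bottom within each row. The 3 groups are separate from each other in the rows of the 4 called receptors, ERBB3, FGFR3, DDR1, DDR2, AREG, HBEGF and PDGFC. The share of all genes with such separate groups was not counted.

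The distance between the shEZH2 libraries reached several members. Of the 32, 6 differed more than 2-fold between the shEZH2 libraries, EGFR, TIE1, EREG, MUSK, IGF1R and DDR2, near the share of 16.9% over all genes. All 6 were higher in the first library, and the share of all genes in that direction was not counted. No member differed more than 2-fold between the shSUZ12 or between the control libraries. Over all genes the ratio of the second shEZH2 library to the first moved with transcript length, the median log2 ratio (CPM + 0.1) being 0.76 in transcripts up to 1000 bases and -0.95 in those over 12000. EGFR, with a transcript of 9821 bases, had a log2 ratio of -2.50, the 26th largest difference of 14192 genes. The 857 genes with transcripts of over 8000 and up to 12000 bases had a median of -0.79 and a range of -1.80 to 0.42 from the 5th to the 95th centile, so EGFR lay below that range. Without the first shEZH2 library the EGFR log2 difference between the shEZH2 line and control was -2.54, and without the second it was -0.0044. Each of these values rests on the other shEZH2 library alone. With each library's trend with length removed, MUSK, PTK7, AXL and TIE1 were still called in the shEZH2 line, together with PDGFB, which was lower, and IGF1R, which was higher, 6 members against 16.3% of all genes.

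**Figure D5:**
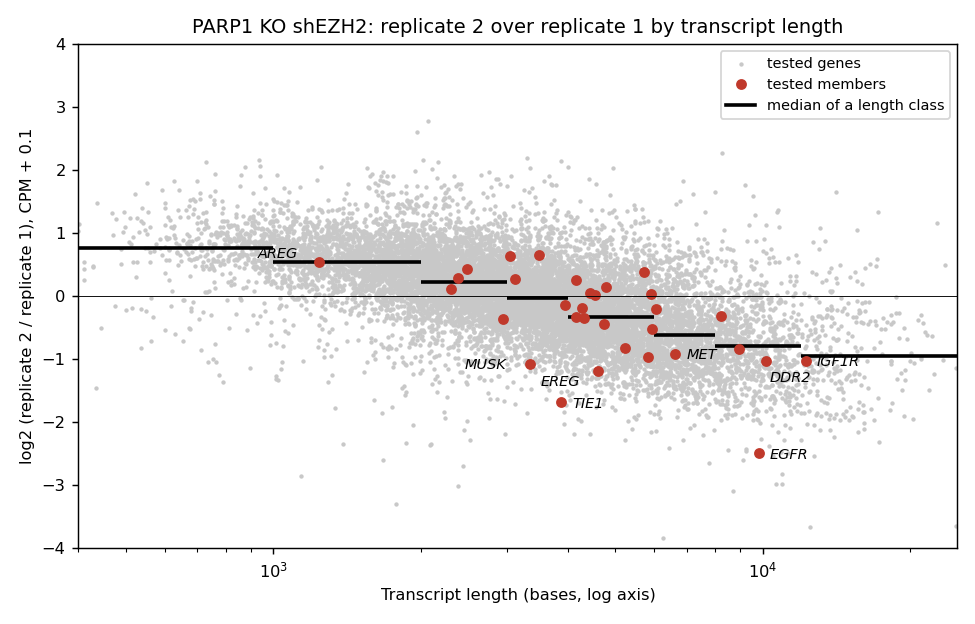
Log2 ratio of the second to the first shEZH2 library (CPM + 0.1) against transcript length in bases (log axis) for all tested genes with a known length (grey) and the tested members (red), with black lines at the median of each length class. The medians go down with length, and EGFR lies below most genes of its length.

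Other genes of the same pathways were counted in lists. Every list gene named below as called against control lost its call without either control library. The shSUZ12 calls were also lost without either shSUZ12 library, and the shEZH2 calls, except those of KSR1 and GFRA1, without either shSUZ12 library and with only the 2 groups compared. Of 29 further ligands of these receptors 18 were tested, and 2 rose and 2 fell in the shEZH2 line, against 3.54% of all genes higher and 3.20% lower. NRG2, a neuregulin, measured 2.12 and 1.69 CPM in shEZH2 cells and 0.405 and 0.095 CPM in control cells, and rose by 2.88 ± 0.56 on the log2 scale (edgeR adjusted p = 0.0288). FGF13, an FGF homologue that stays inside the cell, rose by 2.09 ± 0.49, and the neurotrophins BDNF and NTF3 fell by 0.98 ± 0.22 and 2.71 ± 0.57. The log2 difference of NRG2 was 4.27 without control replicate 1 and 2.22 without control replicate 2. That of FGF13 was 1.38 without the first shEZH2 library and 2.71 without control replicate 1, and that of NTF3 was -3.58 without the second shEZH2 library. In the shSUZ12 line 1 rose and 2 fell, against 1.61% of all genes in either direction. WNT5A, a ligand of ROR1 and RYK, measured 7.33 and 6.53 CPM in shSUZ12 cells and 0.811 and 0.998 CPM in control cells, and rose by 2.93 ± 0.34 (edgeR adjusted p = 0.0113), while BDNF fell by 1.24 ± 0.22. NTF3, which fell as well (edgeR adjusted p = 0.0183), had 1 count in the 2 shSUZ12 libraries and 79 in the 2 control libraries, a ratio of 0.0126 with a 95% counting interval of 0.000316 to 0.0725. That interval, too, leaves out the spread between libraries. BDNF and NTF3 bind NTRK receptors, of which NTRK2 had at most 3 counts in a library and NTRK3 none. The median log2 difference over the 18 ligands was 0.01 in the shEZH2 line and 0.50 in the shSUZ12 line.

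Genes that act inside the cell were counted next. Of 32 tested adaptors and RAS-ERK genes 1 rose and 3 fell in the shEZH2 line, and none was called in the shSUZ12 line, where 4 had an unadjusted p under 0.05. The shares over all genes were 6.74% called in the shEZH2 line, and 1.61% called and 13.1% at an unadjusted p under 0.05 in the shSUZ12 line. KSR1, a scaffold of the ERK cascade, measured 24.0 and 14.1 CPM in shEZH2 cells and 3.96 and 4.28 CPM in control cells, and rose by 2.21 ± 0.30. IRS1, the docking protein of the insulin and IGF receptors, measured 126 and 74.0 CPM in shEZH2 cells and 240 and 236 CPM in control cells; its fall was 1.25 ± 0.26. SOS2, a RAS exchange factor, fell by 1.10 ± 0.24, and NCK2, an adaptor, by 0.96 ± 0.19. None of the 20 tested PI3K-AKT genes was called in edgeR in either line, with 4 at an unadjusted p under 0.05 in the shEZH2 line and 3 in the shSUZ12 line, near the shares of 26.8% and 13.1% over all genes. Of 32 tested feedback and receptor turnover genes only GRB10, an adaptor that inhibits the insulin receptor, was called, falling by 0.84 ± 0.19 in the shEZH2 line. The median log2 difference of the adaptor list was -0.29 in shEZH2 cells and 0.01 in shSUZ12 cells. That of the PI3K-AKT list was -0.23 in shEZH2 cells and 0.04 in shSUZ12 cells, and that of the feedback list -0.31 in shEZH2 cells and 0.04 in shSUZ12 cells.

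Of 14 tested genes that respond to ERK, 1 rose and 2 fell in the shEZH2 line, and 2 rose in the shSUZ12 line, against 6.74% and 1.61% of all genes called in either direction. EGR1, an immediate early transcription factor, measured 10.9 and 14.2 CPM in shEZH2 cells, 20.4 and 19.4 CPM in shSUZ12 cells and 2.70 and 4.89 CPM in control cells. It rose by 1.72 ± 0.31 in the shEZH2 line (edgeR adjusted p = 0.0255) and by 2.39 ± 0.32 in the shSUZ12 line (edgeR adjusted p = 0.0157). IL8, a chemokine, rose by 2.73 ± 0.38 in the shSUZ12 line. MYC fell by 1.11 ± 0.22 and CCND1, cyclin D1, by 1.02 ± 0.19 in the shEZH2 line. The ERK-responsive genes that were called therefore included rises and falls in shEZH2 cells.

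Co-receptors and ligand sheddases had 4 falls among 15 tested in the shEZH2 line and 1 in the shSUZ12 line, with no rise, against 3.20% of all genes lower in the shEZH2 line and 0.888% in the shSUZ12 line. SDC2, a syndecan that holds growth factors on heparan sulfate, measured 48.4 and 48.5 CPM in shEZH2 cells, 32.8 and 28.6 CPM in shSUZ12 cells and 85.2 and 84.5 CPM in control cells. It fell by 0.81 ± 0.18 in the shEZH2 line (edgeR adjusted p = 0.0395) and by 1.47 ± 0.18 in the shSUZ12 line (edgeR adjusted p = 0.0126). The neuropilins NRP2 and NRP1 fell by 1.38 ± 0.21 and 0.997 ± 0.23 in the shEZH2 line, and GFRA1, the GDNF co-receptor, by 4.11 ± 0.67. The GFRA1 log2 difference was -5.29 without the first shEZH2 library and -3.46 without the second. RET, the signalling partner of GFRA1, had no count in any library. The list's median was -0.17 in the shEZH2 line and -0.33 in the shSUZ12 line. Of 5 tested receptor tyrosine kinases outside the 45, none was called in edgeR, with 1 at an unadjusted p under 0.05 in the shEZH2 line and 2 in the shSUZ12 line, against 26.8% and 13.1% of all genes.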

How the data were processed

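MDA-MB-231 RNA was sequenced in 6 libraries, 2 each of PARP1 KO shEZH2, PARP1 KO shSUZ12 and control. The authors deposited whole-number read counts per gene. STAR, GenomeStudio 2010.1, R 3.2.5 and the build GRCh38 are listed in the submitters' processing notes, with no role given. Libraries were made with a stranded mRNA kit, per the labels' protocols. The strand setting of the counting is not given in the sources used here. Genes on opposite strands (MIEN1 beside ERBB2, 4514 counts over 6 libraries; LETM2 beside FGFR1, 2623; EGFR-AS1, 29) may therefore share reads. The 4 entries naming no gene, 16.5% to 21.0% of all counts (multimapping alone 7.21% to 10.4%), were left out. No column was left unused, and no 2 libraries were identical.

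The counts were fitted with edgeR 4.0.16 (R 4.3.3; TMM, filterByExpr by group, robust quasi-likelihood, 3 groups in 1 fit with 3 residual degrees of freedom), which tested 14192 genes, with Benjamini-Hochberg adjustment over all of them. The fit was tested on simulated data. The members and lists were chosen with earlier results of these data known. Values per library were given for members called, for the most abundant 8 receptors and 5 ligands per length in control, for the EGF receptor and AXL families, and for members whose shEZH2 libraries differed more than 2-fold, with further members by family; of each list at most 4 called genes were named, those with the largest differences. Which other members' log2 differences to print was chosen after seeing values. Lengths, from the longest GENCODE 29 transcript, covered 94.3% of tested genes. Exact permutation of 2 against 2 libraries cannot go below p = 0.333 and was not used. Alternatives were DESeq2 1.42.0, its size factors in edgeR, no filter on low counts, no robust step, 2 groups at a time, a replicate block and leaving out each library. Removing each library's trend with length was added after seeing the data.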

Additional observations from a re-analysis of the deposited data

Results flagged for a closer look

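Among genes of the pathway lists, 2 differed between the lines in the direct test, shSUZ12 over shEZH2, against 1.52% of all genes. They were 1 of the 18 tested further ligands and 1 of the 32 tested adaptors and RAS-ERK genes. FGF13, an FGF homologue that stays inside the cell, measured 1.07 and 1.48 CPM in shSUZ12 cells and 13.6 and 5.98 CPM in shEZH2 cells, with 3.06 and 1.52 CPM in control; the log2 difference was -2.94 ± 0.52 (edgeR adjusted p = 0.0454). NCK2, an adaptor, measured 22.2 and 22.9 CPM in shSUZ12 cells and 10.8 and 11.2 CPM in shEZH2 cells, with 21.4 CPM in each control library; the log2 difference was 1.04 ± 0.19 (edgeR adjusted p = 0.0468). Both calls were lost without either control library, without either shSUZ12 library, and in a fit of these 2 groups alone, where the adjusted p was 0.127 for FGF13 and 0.162 for NCK2. Without the first shEZH2 library the FGF13 difference was -2.23.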

How the results depend on the processing

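With 2 libraries a group, the number of calls depended on which libraries set the spread. Leaving out each library in turn, the members called ran from 0 to 20 in the shEZH2 line, from 0 to 15 in the shSUZ12 line and from 0 to 20 between the lines, and all genes called from 5 to 7775, from 9 to 2929 and from 0 to 7537. The lone library of a group was then taken to vary as the other groups do. With only the 2 groups compared, the shEZH2 line had 2 members and 228 genes called, the shSUZ12 line 15 members and 2904 genes, and the direct comparison 1 gene. Removing the trend with length gave 2313 genes in the shEZH2 line, 6 members and 679 genes in the shSUZ12 line, and 6 members and 1361 genes between the lines. Without the filter 20930 genes were tested, and 1471 genes were called in the shEZH2 line, 399 in the shSUZ12 line, and 2 members and 718 genes between the lines. DESeq2 called 1976 genes in the shEZH2 line, 527 in the shSUZ12 line, and 8 members and 1304 genes between the lines. The fit without the robust step called 1 member between the lines, against 1.70% of all genes. The replicate numbers share no stated origin. The deviation of replicate 1 from the mean of its group correlated at 0.165 between the 2 lines. It correlated at 0.116 between the shEZH2 line and control and at 0.0930 between the shSUZ12 line and control. With the replicate block 2 members and 368 genes were called between the lines, against 0 and 216 in the main fit. The block called 5 members in the shEZH2 line, with PDGFB added, against 8.69% of all genes, and 2 in the shSUZ12 line, against 2.31%. DESeq2's size factors left all called members as they were. The direction changed for TGFA in the shEZH2 line, to 0.035 without the trend with length and from -0.29 to 0.087 on leaving out libraries. On leaving out libraries it also changed for IGF1R in the shEZH2 line (-0.38 to 0.69), PDGFB in the shSUZ12 line (-0.014 to 0.78), and EGFR (-0.38 to 2.15) and SUZ12 (-0.86 to 0.46) between the lines. MUSK, PTK7, AXL and TIE1 changed direction against control under none of the alternatives run. The cause was not tested, beyond the fewer libraries of those fits. Depth limits TIE1, MUSK in the shEZH2 line and the 13 untested members, which rest on few counts.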
